A study of Mus musculus with 12 samples.

Results

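The genes described here encode the 5 subunits of the transcription factor NF-kB (Rel, Rela, Relb, Nfkb1 and Nfkb2) and 5 proteins of the IkB family (Nfkbia, Nfkbib, Nfkbie, Nfkbiz and Bcl3). They were chosen by gene symbol, and all 10 were found among the 24046 symbols that each count file lists. All 10 also passed the filter on low counts. The RNA came from sorted follicular B cells of the mouse spleen, and 6 animals gave 12 poly(A) RNA-seq libraries in 4 groups of 3. The groups were Jmjd1c KO cells labelled as 2 h of anti-IgM, Jmjd1c KO cells labelled as 0 h, Jmjd1c WT cells at 2 h and Jmjd1c WT cells at 0 h. Anti-IgM crosslinks the B cell receptor, and Jmjd1c encodes a Jumonji-domain protein of the histone demethylase family. Each animal gave both times, and each batch, numbered 1 to 3 like the replicates, held 1 KO and 1 WT animal. The sources used here do not give the strain, sex and age of the animals, the allele or Cre driver behind the KO, or the dose of anti-IgM. None of the 12 libraries came from cells cultured for 2 h without anti-IgM, so time in culture and receptor stimulation cannot be told apart.

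NF-kB acts as pairs of subunits that bind DNA in the nucleus, and in resting cells the IkB proteins hold those pairs in the cytoplasm. Signals from the B cell receptor activate the IkB kinase, which marks IkB proteins for destruction and frees the subunits. Several subunit and IkB genes are themselves known targets of NF-kB, and in follicular B cells Rel is the subunit best known for growth and survival after receptor stimulation. Bcl3 and IkB-zeta, the product of Nfkbiz, differ from the classical inhibitors in that they work in the nucleus as partners of the p50 and p52 subunits.

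To show the control regions of these genes, the windows from 250 bases before to 50 bases after the annotated start were read from the RefSeq promoter table for GRCm38.p6, which held 7 of the 10 genes in 9 entries. Relb, Nfkb1 and Nfkbiz had no entry. Shown are Rel, the subunit gene with the largest change, Nfkbia, the classical inhibitor gene, the Nfkb2 window with the strictest kB-type motif, and Nfkbie and Bcl3, the genes with the highest and the lowest 2 h over 0 h fold in WT cells. Capitals mark matches to GGGNNTTTC, a short form of the kB site that NF-kB binds, on either strand (GAAANNCCC where it lies on the other one). Each window is written 5′ to 3′ on the strand of its gene.
Rel, chr11:23770920-23771219, minus strand: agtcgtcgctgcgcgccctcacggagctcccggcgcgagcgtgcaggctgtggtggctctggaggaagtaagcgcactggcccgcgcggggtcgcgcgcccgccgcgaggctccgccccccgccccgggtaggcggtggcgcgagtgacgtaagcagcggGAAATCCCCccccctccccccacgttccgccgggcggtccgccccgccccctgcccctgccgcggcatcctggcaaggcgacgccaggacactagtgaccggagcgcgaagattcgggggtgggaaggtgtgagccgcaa
Nfkbia, chr12:55492598-55492897, minus strand: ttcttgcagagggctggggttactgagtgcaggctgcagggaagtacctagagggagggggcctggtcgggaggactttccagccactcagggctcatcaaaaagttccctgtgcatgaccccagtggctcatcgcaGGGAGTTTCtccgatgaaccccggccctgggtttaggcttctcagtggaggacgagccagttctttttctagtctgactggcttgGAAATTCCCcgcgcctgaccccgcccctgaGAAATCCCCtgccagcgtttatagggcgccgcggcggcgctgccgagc
Nfkb2, chr19:46305445-46305744, plus strand: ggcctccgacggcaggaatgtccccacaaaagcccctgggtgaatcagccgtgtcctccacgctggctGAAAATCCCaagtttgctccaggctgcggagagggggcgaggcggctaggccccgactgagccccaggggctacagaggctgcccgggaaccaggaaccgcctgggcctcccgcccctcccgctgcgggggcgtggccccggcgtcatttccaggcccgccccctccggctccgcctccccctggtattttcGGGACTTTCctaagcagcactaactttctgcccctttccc
Nfkbie, chr17:45555450-45555749, plus strand: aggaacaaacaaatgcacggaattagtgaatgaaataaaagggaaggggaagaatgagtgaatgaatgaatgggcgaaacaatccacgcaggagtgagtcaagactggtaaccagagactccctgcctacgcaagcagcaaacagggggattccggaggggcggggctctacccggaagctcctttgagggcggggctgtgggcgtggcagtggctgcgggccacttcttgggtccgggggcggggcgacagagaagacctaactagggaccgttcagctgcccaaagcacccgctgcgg
Bcl3, chr7:19822706-19823005, minus strand: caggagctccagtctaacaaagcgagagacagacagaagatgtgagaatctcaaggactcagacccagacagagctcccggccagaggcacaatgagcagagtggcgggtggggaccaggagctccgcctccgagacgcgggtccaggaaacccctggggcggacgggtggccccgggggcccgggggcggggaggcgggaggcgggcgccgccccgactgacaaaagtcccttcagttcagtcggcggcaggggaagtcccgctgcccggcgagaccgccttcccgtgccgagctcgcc
Positions are counted from the start, with negative numbers before it. The match in Rel began at -90 and read GAAATCCCC. Nfkbia had 3 matches, GGGAGTTTC at -113, GAAATTCCC at -28 and GAAATCCCC at 3. The Nfkb2 window shown held GAAAATCCC at -182 and GGGACTTTC at 11, and the Nfkb2 entry with the earliest start held GGGGCTTTC at -11. Nfkbie, Bcl3 and Nfkbib had no match, and Rela, not shown, had GAAATCCCC at -97. Among all 32851 windows of the table, 4.36% held GGGNNTTTC and 0.353% held GGGACTTTC, which is a special case of it. The members' entries held them in 6 and 2 of 9 cases, and the 2 Nfkb2 windows with GGGACTTTC overlap and share that site. With a further C required after GGGNNTTTC, the share of all windows was 1.63% and that of the members' entries 5 of 9, and Rela had no match. A match to letters is not a measured binding site. GGGNNTTTC also requires TTTC at its end, so it misses kB sites spelled otherwise. Having no match, as in Nfkbie, Bcl3 and Nfkbib, therefore does not show that a window lacks kB sites.

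Total counts were 5666013 to 14153396 per library, and the 10 genes together took 6531 to 49363 of them. Values below are CPM, the deposited raw counts divided by each library's TMM-scaled total, and a count of 0 would have allowed up to 0.183 to 1.02 CPM, counting error only. KO 2 h replicate 1 stood apart from the other libraries. It had the lowest total, 52.3% of its counts were on the 45S ribosomal RNA row Rn45s, and its Mki67 level was 529.7 CPM. In the other 11 libraries Rn45s took 0.418% to 24.8%, the highest being WT 2 h replicate 1 of the same batch. Mki67 also differed by batch: it was at 138 CPM in WT 2 h replicate 1, at 67.2 to 97.1 CPM in batch 2 and at 8.81 to 14.5 CPM in the remaining libraries. Of 10 follicular B cell markers, 8 were found under the symbols used, and their summed level was 2707 to 5878 CPM, lowest in KO 2 h replicate 1. The summed myeloid markers (7 of 8 found, 16.7 to 91.1 CPM) and the summed erythroid and platelet markers (5 of 5 found, 4.83 to 89.0 CPM) were highest in that library, and no marker found was at 0 in all 12 libraries. T cell markers (7 of 8 found) summed to 28.4 to 79.0 CPM. Marker sums also moved with time. The follicular B cell sum was 2707 to 4637 CPM in KO 2 h cells, against 5111 to 5878 CPM in KO 0 h cells, and 2957 to 4197 CPM in WT 2 h cells, against 4466 to 5586 CPM in WT 0 h cells. The sum of 4 dendritic markers, mostly Flt3 and Zbtb46, was 18.3 to 26.9 CPM in KO 2 h cells, against 11.1 to 11.5 CPM in KO 0 h cells, and 17.2 to 37.7 CPM in WT 2 h cells, against 7.38 to 10.6 CPM in WT 0 h cells. Neither sum overlapped between times in either genotype, nor did the plasma cell sum in WT cells, at 164 to 221 CPM at 2 h, against 228 to 264 CPM at 0 h, and the part of these differences in the results was not tested. In the comparisons that use KO 2 h cells, calls of the 10 genes that change without KO 2 h replicate 1 are given both ways. The WT response, KO against WT at 0 h and the gene lists were not refitted without that library alone, although its spread enters the shared fit.

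Jmjd1c, the targeted gene, was at 208, 213 and 199 CPM in KO 2 h cells, against 322, 295 and 269.7 CPM in WT 2 h cells. It was at 231, 236 and 197 CPM in KO 0 h cells, against 360.0, 326 and 289 CPM in WT 0 h cells. Every KO library lay below every WT library, but the KO level stayed well above 0. The log2 difference, KO over WT, was -0.52 ± 0.13 (SE) at 2 h and -0.56 ± 0.13 at 0 h. These had unadjusted p = 0.00203 and 0.00114 in edgeR's quasi-likelihood test, and neither passed the Benjamini-Hochberg adjustment over 12242 genes (adjusted p = 0.897 and 0.9999). The sources used here do not say which part of the gene the KO removes, so counts over the whole gene check the labels only in part.

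To compare levels between genes, CPM was divided by the length of the longest protein-coding transcript in GENCODE M21, in kb. At 0 h Nfkbia, which encodes IkB-alpha, the inhibitor that is degraded and remade fastest, had the highest level per kb, at 175 ± 20.6 CPM per kb in KO cells and 169.5 ± 13.0 CPM per kb in WT cells (SD, n = 3 each). Nfkb1, which encodes p105 and p50, ranked 2 at 121 ± 16.3 CPM per kb in KO cells and 117 ± 14.8 CPM per kb in WT cells. Nfkb2, which encodes p100 and p52, ranked 3 at 90.7 ± 4.88 CPM per kb in KO cells and 95.5 ± 5.53 CPM per kb in WT cells. These 3 did not overlap their neighbours in the order in either genotype. In WT cells at 0 h they were followed by Bcl3, Relb and Rela (71.4 ± 8.49, 69.1 ± 8.04 and 64.0 ± 5.08 CPM per kb), of which neighbours overlapped. Nfkbie and Rel came after them, at 49.6 ± 4.75 and 35.8 ± 5.56 CPM per kb, and Nfkbib and Nfkbiz were lowest at 26.0 ± 2.72 and 25.4 ± 2.62 CPM per kb, overlapping each other. KO cells at 0 h had the same first 8 genes in the same order.

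At 2 h in WT cells Nfkbia was still first at 234 ± 6.29 CPM per kb, but it now overlapped Nfkb1 at 209 ± 40.0 CPM per kb. Nfkbie ranked 3 at 161 ± 33.9 CPM per kb (rank 7 at 0 h), and Bcl3 was last at 25.1 ± 1.47 CPM per kb (rank 4 at 0 h). In KO cells at 2 h every neighbouring pair but the last, Nfkbib and Bcl3, overlapped. There Nfkbia was at 279 ± 44.4, Nfkb1 at 188 ± 86.2, Nfkbie at 140.3 ± 52.0 and Bcl3 at 27.0 ± 2.60 CPM per kb. The places of Nfkb1, Rela and Relb, among others, depended on the length used. The exons of Nfkb1 together cover 12061 bases against 4117 bases in the longest protein-coding transcript. With all exons Nfkb1 ranked 5 in all 4 groups. In WT cells at 0 h Rela then ranked 3 at 56.6 ± 4.49 CPM per kb, and Relb ranked 7 at 39.3 ± 4.57 CPM per kb. With all exons Nfkbia stayed first in all 4 groups, and Bcl3 still ranked 4 at 0 h and last at 2 h.

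**Figure D1:**
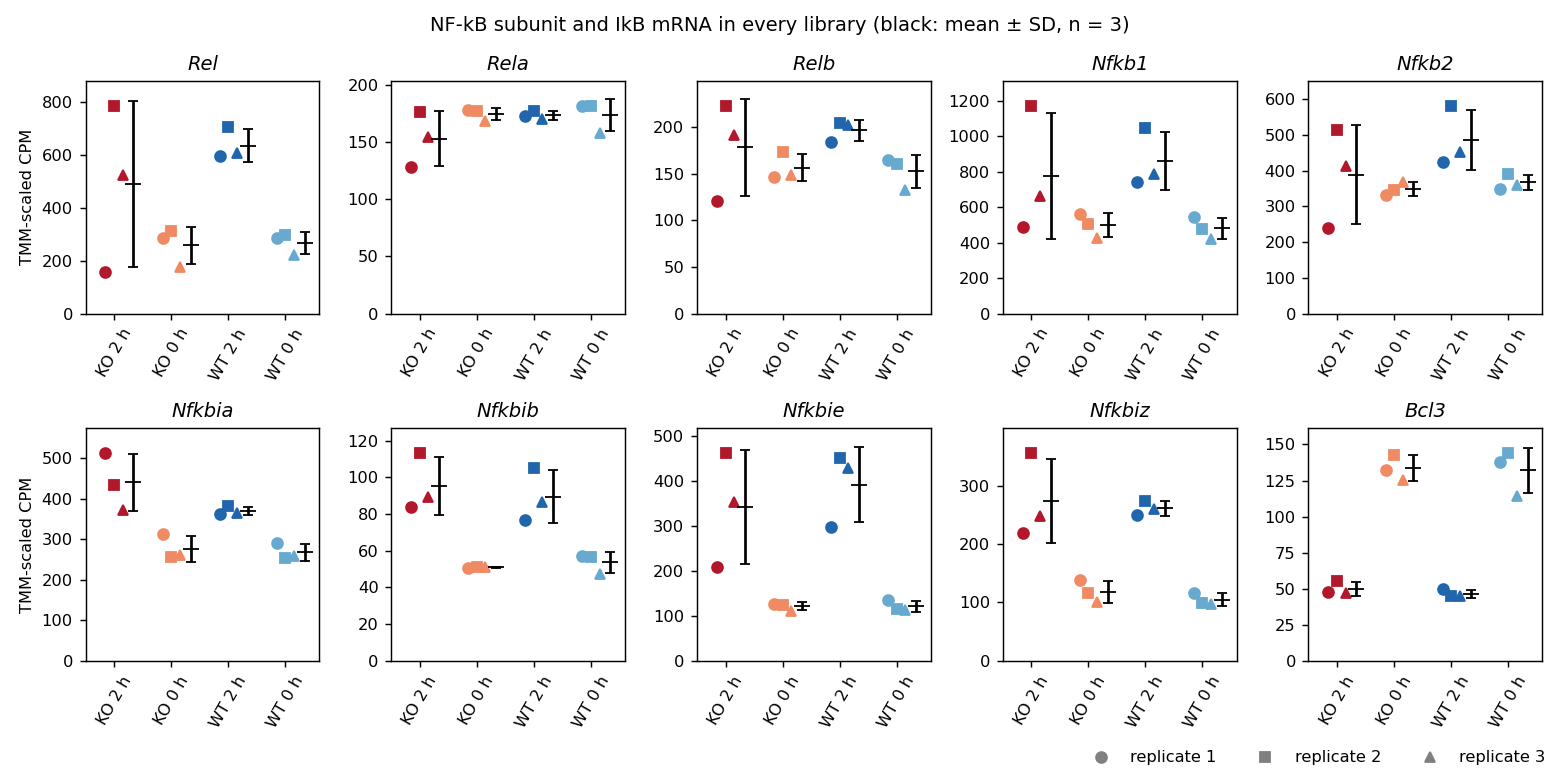
Each panel shows 1 gene in the 12 libraries: the y axis is TMM-scaled CPM from 0, the x axis gives the 4 groups, marker shapes give the replicate and black bars the mean ± SD (n = 3). Bcl3 at 2 h lies below all 0 h libraries in both genotypes, Nfkbie and Nfkbiz lie above them, and the circle of KO 2 h replicate 1 is low for Rel at 158 CPM.

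The first comparison was the response to 2 h of anti-IgM. In both genotypes the IkB family genes Nfkbie, Nfkbiz, Nfkbib and Nfkbia rose and Bcl3 fell. Nfkbie had 2.83 times its 0 h level in KO cells and 3.24 times in WT cells, and Bcl3 had 0.374 times its 0 h level in KO cells and 0.352 times in WT cells. Of the subunit genes, Nfkb1 was called in WT cells, where it rose 1.79-fold. No subunit gene was called in KO cells when all 12 libraries were used. In bulk RNA, fewer cells of a type and less RNA per cell cannot be told apart. The summed follicular B cell markers were lower and the summed dendritic markers higher at 2 h in both genotypes, with the values given above, and their part in the changes over time was not tested.

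The subunit gene that moved most was Rel, which encodes c-Rel and lies at chr11:23736847-23770970 on the minus strand of mm10. It was at 158, 786 and 525 CPM in KO 2 h cells, against 285, 312 and 177 CPM in KO 0 h cells. It was at 595, 706 and 607 CPM in WT 2 h cells, against 286, 296 and 219.9 CPM in WT 0 h cells. The 3 WT libraries at 2 h lay above all WT libraries at 0 h, whereas in KO cells replicate 1 at 2 h was the lowest of the 6 libraries and the other 2 at 2 h were the highest. The fitted log2 change was 0.93 ± 0.43 (SE) in KO cells and 1.25 ± 0.43 in WT cells, with adjusted p = 0.133 and 0.0656 (edgeR, Benjamini-Hochberg over 12242 genes). Without KO 2 h replicate 1 the change in KO cells was 1.35 ± 0.24 with adjusted p = 0.00163. Leaving out both 2 h libraries of batch 1 gave 1.31 ± 0.25 in KO cells and 1.25 ± 0.25 in WT cells, called in both, with adjusted p = 0.00325 and 0.00452 (edgeR). With the batch number as a block the WT change passed, with adjusted p = 0.0481, and the KO change did not, with adjusted p = 0.142. With the animal as a block neither passed: the KO change was 0.73 with adjusted p = 0.264 and the WT change 1.26 with adjusted p = 0.0764 (edgeR). Without any 1 of the 6 WT libraries the WT adjusted p was 0.103 to 0.200, and these fits kept KO 2 h replicate 1. With the groups of each genotype fitted on their own, the WT change was 1.25 ± 0.14 with adjusted p = 7.0e-04. The KO change was then 0.92 ± 0.54 with adjusted p = 0.283 (edgeR). Of 16 other settings, 5 called Rel in WT cells. DESeq2 called Rel in WT cells, with adjusted p = 0.0103, and not in KO cells (adjusted p = 0.0674).

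Nfkb1, at chr3:135584655-135691547 on the minus strand, gives the p50 subunit that pairs with both c-Rel and RelA. It was at 489, 1172 and 662 CPM in KO 2 h cells, against 562, 507 and 429 CPM in KO 0 h cells. It was at 743, 1049 and 790.2 CPM in WT 2 h cells, against 543, 477 and 421 CPM in WT 0 h cells. The WT times did not overlap, while KO 2 h replicate 1 lay among the KO 0 h libraries. On the log2 scale the change was 0.63 ± 0.27 in KO cells (adjusted p = 0.105) and 0.84 ± 0.27 in WT cells (adjusted p = 0.0492, edgeR). The WT call sat at the threshold: with the animal as a block the adjusted p was 0.0609, and without any 1 of the 6 WT libraries it was 0.0618 to 0.204. With the WT groups fitted on their own it was 0.00522 (edgeR), and 7 of 16 other settings kept the WT call. Without KO 2 h replicate 1 the KO change was 0.88 ± 0.23 and passed, with adjusted p = 0.0138. A predicted gene, Gm43430, overlaps Nfkb1 on the same strand, so reads of the pair may be shared.

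The other subunit genes moved less, and none of them was called with all libraries in the fit. Nfkb2, at chr19:46304320-46312385 on the plus strand, was at 241, 514 and 412 CPM in KO 2 h cells, against 332, 346 and 369 CPM in KO 0 h cells. In WT cells it was at 426, 582 and 452 CPM at 2 h, against 349.8, 391 and 361 CPM at 0 h. Its WT times did not overlap and its KO times did. The log2 change of Nfkb2 was 0.16 ± 0.23 in KO cells (adjusted p = 0.626) and 0.40 ± 0.23 in WT cells (adjusted p = 0.251, edgeR). Of 16 other settings, 2 called Nfkb2 in WT cells. Without both 2 h libraries of batch 1 the WT change was 0.45 with adjusted p = 0.0270. With the WT groups fitted on their own it was 0.41 with adjusted p = 0.0475 (edgeR). Antisense genes, among them Psd, overlap Nfkb2.

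Relb, the partner of p52 in the non-canonical pathway, lies at chr7:19606217-19629438 on the minus strand. It was at 121, 223 and 192 CPM in KO 2 h cells, against 147, 173 and 149 CPM in KO 0 h cells. In WT cells it was at 184, 205 and 202 CPM at 2 h, against 165, 161 and 132 CPM at 0 h. As for Nfkb2, the WT times did not overlap and KO 2 h replicate 1 was the lowest KO library. In the fit the log2 change was 0.20 ± 0.19 in KO cells (adjusted p = 0.452) and 0.37 ± 0.19 in WT cells (adjusted p = 0.210, edgeR). With the WT groups fitted on their own the WT adjusted p was 0.0382 (edgeR), the only 1 of 16 other settings that called Relb in WT cells. Without KO 2 h replicate 1 the KO changes of Relb and Nfkb2 were both 0.41, with adjusted p = 0.0294 for Relb and 0.0495 for Nfkb2 (edgeR).

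Rela, which encodes the widely used subunit p65, lies at chr19:5637483-5648130 on the plus strand. It was at 129, 177 and 154 CPM in KO 2 h cells, against 178, 177 and 169 CPM in KO 0 h cells. In WT cells it was at 173, 178 and 170.2 CPM at 2 h, against 182, 182 and 158 CPM at 0 h. The times overlapped in both genotypes. The log2 change was -0.19 in KO cells with a 95% interval from -0.46 to 0.09, and -0.00 in WT cells with an interval from -0.27 to 0.27. A WT change of more than about 1.21-fold in either direction is outside that interval (0.827 to 1.21).

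Among the IkB family genes, Nfkbie rose most. It encodes IkB-epsilon, an inhibitor that is made again after stimulation and holds c-Rel and RelA complexes, and lies at chr17:45555703-45563169 on the plus strand. It was at 209, 462 and 354 CPM in KO 2 h cells, against 127, 125 and 111 CPM in KO 0 h cells. It was at 297, 450.1 and 428 CPM in WT 2 h cells, against 134, 116 and 113 CPM in WT 0 h cells. Times did not overlap in either genotype, and in each genotype batch 1 had the lowest 2 h library. The fitted log2 change was 1.50 ± 0.25 in KO cells (adjusted p = 0.00118) and 1.70 ± 0.25 in WT cells (adjusted p = 8.4e-04, edgeR). Its promoter window printed above had no match to GGGNNTTTC, a form that misses kB sites spelled otherwise.

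Nfkbiz, at chr16:55811375-55838899 on the minus strand, encodes the nuclear IkB-zeta, which acts as a co-activator with p50. It was at 220.0, 357 and 249 CPM in KO 2 h cells, against 138, 116 and 101 CPM in KO 0 h cells. It was at 250.1, 275 and 260.0 CPM in WT 2 h cells, against 117, 99.2 and 97.8 CPM in WT 0 h cells. All 6 libraries at 2 h lay above all 6 at 0 h. On the log2 scale the change was 1.22 ± 0.18 in KO cells (adjusted p = 6.9e-04) and 1.32 ± 0.18 in WT cells (adjusted p = 6.1e-04, edgeR).

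Nfkbib, at chr7:28758251-28767512 on the minus strand, encodes IkB-beta, an inhibitor that is degraded more slowly than IkB-alpha. It was at 83.6, 113 and 89.1 CPM in KO 2 h cells, against 50.5, 50.9 and 51.2 CPM in KO 0 h cells. It was at 76.7, 105 and 86.8 CPM in WT 2 h cells, against 57.0, 56.6 and 47.1 CPM in WT 0 h cells. Again all 2 h libraries lay above all 0 h libraries. In the fit the log2 change was 0.91 ± 0.15 in KO cells (adjusted p = 0.00109) and 0.74 ± 0.15 in WT cells (adjusted p = 0.00465, edgeR). The antisense genes Sirt2 and Ccer2 overlap Nfkbib, and the sources used here do not give the strand setting of the counting.

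Nfkbia, at chr12:55489410-55492647 on the minus strand, was at 512, 435 and 373 CPM in KO 2 h cells, against 314, 255 and 259.9 CPM in KO 0 h cells. It was at 362, 381 and 365 CPM in WT 2 h cells, against 291, 253 and 259 CPM in WT 0 h cells. Its 2 h and 0 h libraries did not overlap, and KO 2 h replicate 1 was here the highest of all 12. The log2 change was 0.67 ± 0.15 in KO cells (adjusted p = 0.00563) and 0.46 ± 0.14 in WT cells (adjusted p = 0.0413, edgeR). The WT call did not survive the loss of any 1 WT library, with adjusted p of 0.0677 to 0.141, nor RLE size factors in place of TMM (adjusted p = 0.0547). With the WT groups fitted on their own the adjusted p was 0.00759 (edgeR), and 8 of 16 other settings kept the WT call. The KO call was lost with the KO groups fitted on their own (adjusted p = 0.0575).

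Bcl3, at chr7:19808462-19822770 on the minus strand, was the single member that fell. It was at 47.4, 55.5 and 46.9 CPM in KO 2 h cells, against 132, 143 and 126 CPM in KO 0 h cells. It was at 49.7, 44.99 and 44.9 CPM in WT 2 h cells, against 138, 144 and 114 CPM in WT 0 h cells. The highest 2 h library, at 55.5 CPM, was below every 0 h library. The fitted log2 change was -1.42 ± 0.12 in KO cells (adjusted p = 3.9e-05) and -1.50 ± 0.12 in WT cells (adjusted p = 5.2e-05, edgeR), and it was called under every alternative tried, at -1.60 to -1.46 in WT cells and -1.51 to -1.37 in KO cells. Antisense predicted genes, Gm16174 and Gm16175, overlap Bcl3.

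In KO cells 5 of 10 members were called by edgeR, 4 higher and 1 lower at 2 h, where 27.0% of the 12242 tested genes were called, 14.0% higher and 13.0% lower. In WT cells 6 of 10 were called, 5 higher and 1 lower, where 19.7% of all tested genes were called, 10.7% higher and 8.96% lower. The 2 h and 0 h libraries did not overlap for 5 of 10 members in KO cells and 9 of 10 in WT cells, against 37.5% of all tested genes in KO cells and 43.9% in WT cells. The share of KO members without overlap was thus not far from that of all genes. The median log2 change over the 10 members was 0.65 in KO cells and 0.60 in WT cells, beside 0.04 and 0.01 over all tested genes.

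**Figure D2:**
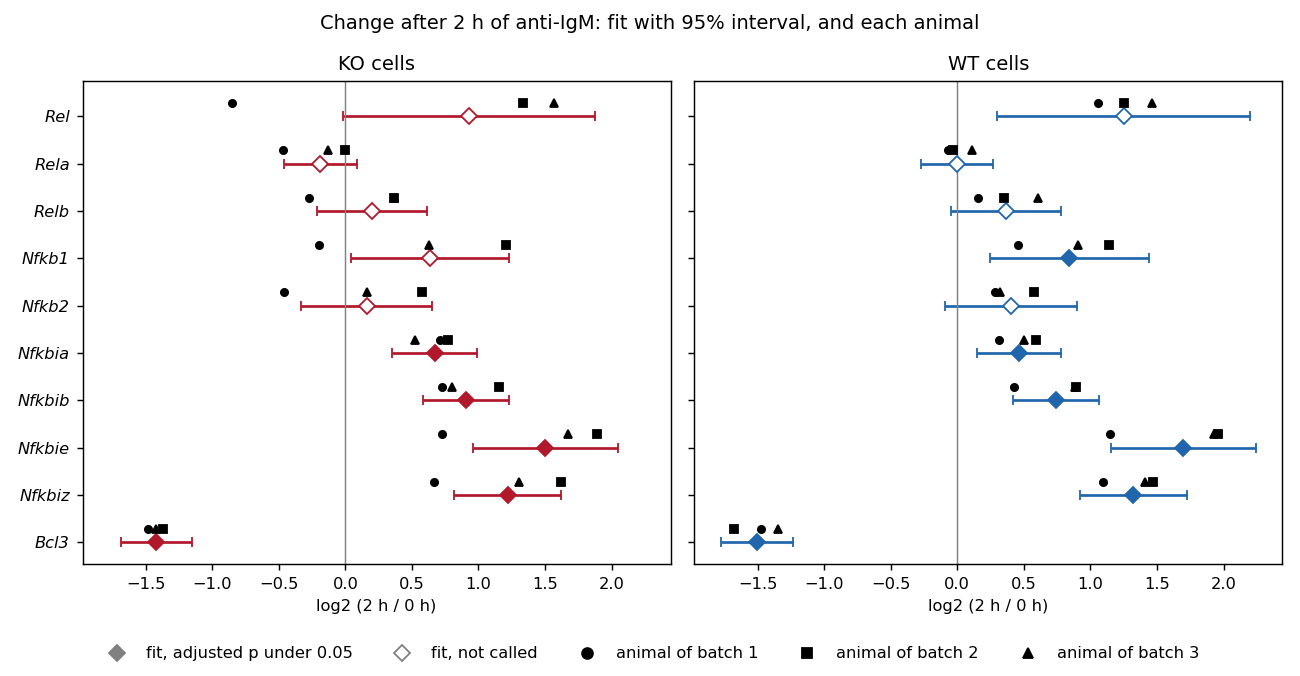
For each gene the diamond is the fitted log2 ratio of 2 h over 0 h with its 95% interval, filled where the adjusted p was under 0.05, for KO cells on the left and WT cells on the right. Black markers are the single animals; the KO animal of batch 1 lies left of 0 for all 5 subunits, at -0.85 for Rel, and right of 0 for Nfkbia, Nfkbib, Nfkbie and Nfkbiz.

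Because each animal gave both times, the change could also be read animal by animal. Nfkbia, Nfkbib, Nfkbie and Nfkbiz were higher at 2 h in 3 of 3 KO animals and 3 of 3 WT animals, and Bcl3 was lower in all of them. The log2 change of Bcl3 was -1.48 to -1.37 in the KO animals and -1.68 to -1.35 in the WT animals. Rel changed by -0.85, 1.33 and 1.57 in the KO animals of batches 1, 2 and 3, and by 1.06, 1.25 and 1.46 in the WT animals. The KO animal of batch 1 was the only one in which Relb, Nfkb1 and Nfkb2 were lower at 2 h, as Rel was; Rela was lower in 3 of 3 KO animals and 2 of 3 WT animals. In that KO animal Rela changed by -0.47, Relb by -0.28, Nfkb1 by -0.20 and Nfkb2 by -0.46, while Nfkbia, Nfkbib, Nfkbie and Nfkbiz changed by 0.71, 0.73, 0.72 and 0.67. Its 2 h library is the one with 52.3% Rn45s.

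Ratios within a library do not depend on the scaling between libraries. Counts per kb here use the longest protein-coding transcript, and the shares and sums were not recomputed with all exons. Their size depends on that length, most of all through Nfkb1 (4117 bases, against 12061 with all exons). Rel made up 6.95%, 15.3% and 14.6% of the subunit counts per kb in KO 2 h cells, against 9.70%, 10.5% and 6.70% in KO 0 h cells. It made up 15.4%, 14.4% and 14.9% in WT 2 h cells, against 9.52%, 10.0% and 8.57% in WT 0 h cells. So 5 libraries at 2 h stood above all at 0 h, and KO 2 h replicate 1 lay among the 0 h libraries. The share of Rela was 15.5%, 9.43% and 11.8% in KO 2 h cells, against 16.7%, 16.4% and 17.6% in KO 0 h cells. In WT cells Rela was 12.3%, 9.93% and 11.5% of the subunit counts per kb at 2 h, against 16.6%, 16.9% and 16.9% at 0 h. All 6 libraries at 2 h had a lower Rela share than all 6 at 0 h, although the CPM of Rela overlapped between times.

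Within the IkB family group, Bcl3 took 4.83%, 4.71% and 4.96% of the counts per kb in KO 2 h cells, against 18.8%, 22.5% and 20.7% in KO 0 h cells. It took 5.64%, 4.28% and 4.52% in WT 2 h cells, against 20.1%, 23.1% and 19.4% in WT 0 h cells. Bcl3 thus gave a much smaller share at 2 h in every library, KO 2 h replicate 1 included. Nfkbie took 16.2%, 29.8% and 28.5% in KO 2 h cells, against 13.7%, 14.9% and 13.9% in KO 0 h cells, and 25.6%, 32.5% and 32.7% in WT 2 h cells, against 14.9%, 14.1% and 14.5% in WT 0 h cells. The ratio between the nuclear members shifted: not divided by length, Nfkbiz counts over Bcl3 counts were 4.64, 6.44 and 5.30 in KO 2 h cells, against 1.05, 0.813 and 0.801 in KO 0 h cells. In WT cells that ratio was 5.03, 6.12 and 5.79 at 2 h, against 0.849, 0.688 and 0.855 at 0 h, so every 2 h library lay above every 0 h library. The summed IkB family counts per kb include the nuclear members Nfkbiz and Bcl3, so they do not measure inhibition. They were 1.74, 0.923 and 1.06 times the summed subunit counts per kb in KO 2 h cells, against 0.968, 0.861 and 0.927 times in KO 0 h cells. In WT cells they were 0.920, 0.862 and 0.985 times at 2 h, against 0.919, 0.850 and 0.926 times at 0 h. KO 2 h replicate 1, at 1.74, stood apart from the other 11 libraries. Whether the IkB family sum lies above or below the subunit sum can depend on the length used.

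**Figure D3:**
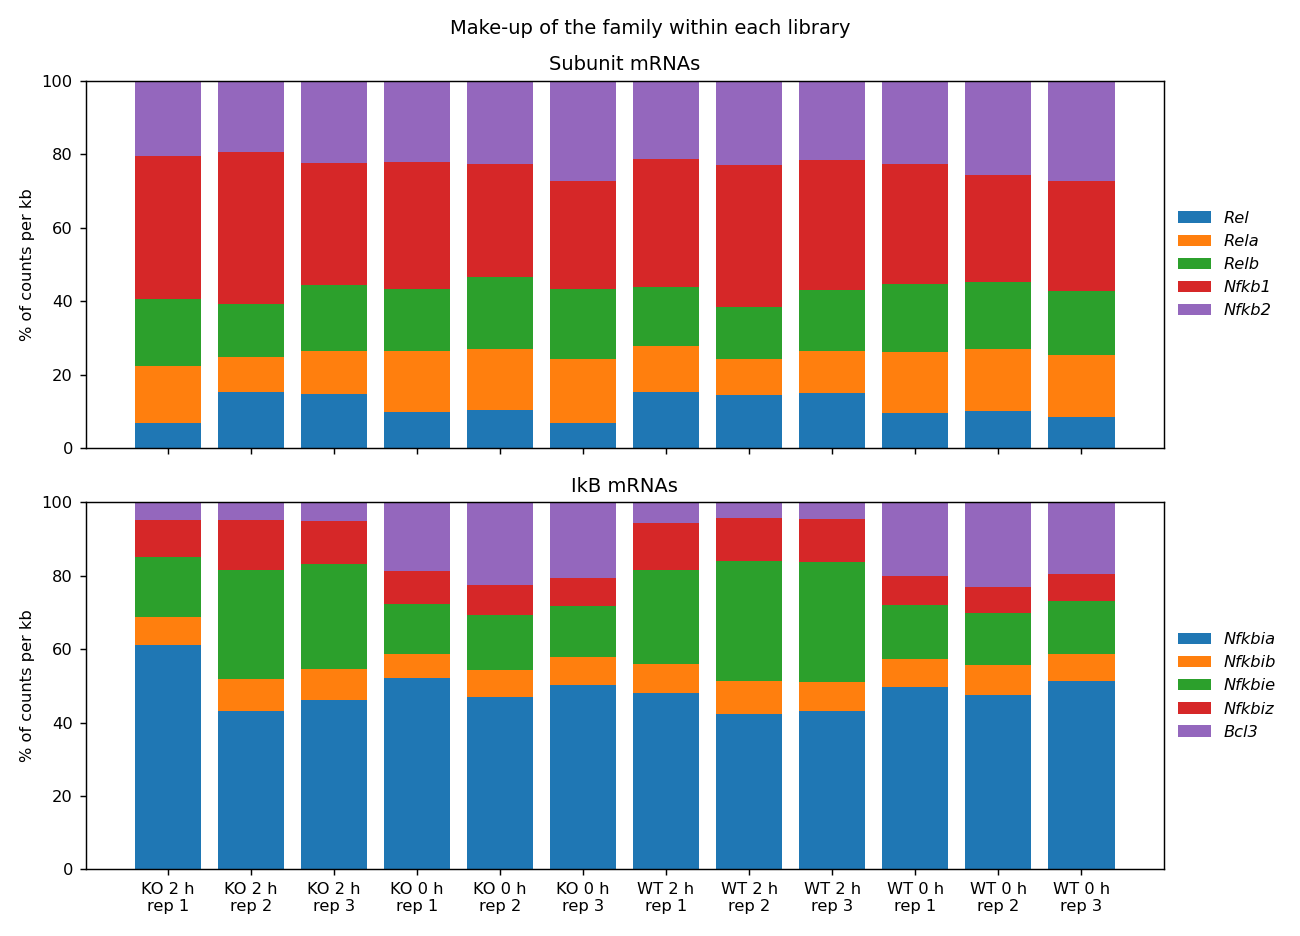
Stacked bars give, for each of the 12 libraries on the x axis, the share of each gene in the summed counts per kb (y axis, percent) of the 5 subunits above and of the 5 IkB family genes below. The Bcl3 segment is 4.28% to 5.64% at 2 h and 18.8% to 23.1% at 0 h, and the Rel segment of KO 2 h replicate 1 is 6.95%.

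The second comparison, KO against WT at the same time, asks whether loss of Jmjd1c was accompanied by other levels of these genes. No member differed at the threshold. At 2 h, 0 of 10 members and 0.0% of the 12242 tested genes were called by edgeR, and 0 of 10 members had an unadjusted p under 0.05, as 5.1% of all genes did. At 0 h, too, 0 of 10 members and 0.0% of genes were called, and 0 of 10 members had an unadjusted p under 0.05, as 0.735% of all genes did. DESeq2 called 0 members at either time; over all genes it called 0 at 2 h and 1 at 0 h. The KO and WT libraries overlapped for all 10 members at both times, whereas 8.22% of all genes at 2 h and 5.85% at 0 h had no overlap.

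At 2 h the fitted KO over WT value was below 0 for all 5 subunits, and their intervals all included 0. It was -0.37 for Rel with a 95% interval from -1.31 to 0.56, and -0.32 for Nfkb2 with an interval from -0.81 to 0.17. For Rela it was -0.18 (-0.45 to 0.10), for Nfkb1 -0.15 (-0.74 to 0.44) and for Relb -0.13 (-0.55 to 0.28). These signs rested in part on batch 1: without both 2 h libraries of that batch the value was 0.00 for Rel and Nfkb1 and 0.04 for Relb, while Nfkb2 stayed at -0.15 and Rela at -0.07. Nfkb2 and Rela were lower in KO cells in 3 of 3 batches at 2 h. The share of all genes with 1 direction in 3 of 3 batches was not computed, so such agreement is only described. Within batches 1, 2 and 3 the Rel value was -1.91, 0.15 and -0.21. The interval for Rel ran from 0.403 to 1.48 times the WT level, so with this spread even a large difference in Rel could not have been told from none.

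Of the IkB family genes at 2 h with all libraries, Nfkbia differed most, by 0.25 with a 95% interval from -0.06 to 0.57, and was higher in KO cells in 3 of 3 batches (0.03 to 0.50). Without KO 2 h replicate 1 its value was 0.13, below the 0.21 of Nfkbiz and the 0.18 of Nfkbib, so its place rested on that library. Nfkbib was also higher in KO cells in 3 of 3 batches (0.04 to 0.12). With all libraries Nfkbib differed by 0.10 (-0.22 to 0.42), Bcl3 by 0.10 (-0.17 to 0.37), Nfkbiz by 0.07 (-0.32 to 0.47) and Nfkbie by -0.19 (-0.72 to 0.34). For Bcl3, the member with the narrowest interval, a KO level under 0.891 or over 1.29 times the WT level is outside the interval. At 0 h the values ran from -0.07 for Nfkb2 and Nfkbib to 0.18 for Nfkbiz, which was further from 0 than the 2 h value of that gene. The widest interval at 0 h was that of Rel, from -0.99 to 0.88, and the narrowest that of Bcl3, from -0.24 to 0.28.

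**Figure D4:**
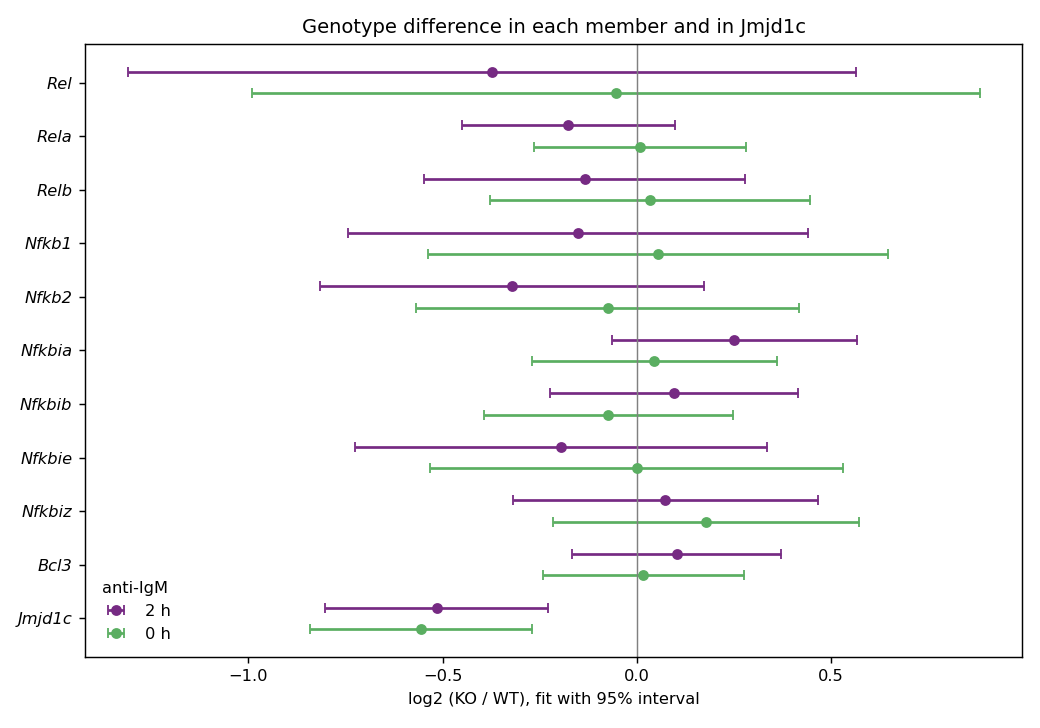
Points are fitted log2 ratios of KO over WT with 95% intervals on the x axis, at 2 h (purple) and 0 h (green), for the 10 members and Jmjd1c on the y axis. The interval of Jmjd1c lies below 0 at both times, and the intervals of all 10 members include 0, the widest being those of Rel.

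The third comparison was the difference between the KO and WT responses. Again 0 of 10 members and 0.0% of genes were called, and 0 of 10 members had an unadjusted p under 0.05, as 0.302% of all genes did. DESeq2 called 0 genes. The fitted difference, KO response minus WT response on the log2 scale, was -0.32 for Rel with a 95% interval from -1.65 to 1.01. It was -0.19 for Nfkbie (-0.95 to 0.56), -0.10 for Nfkbiz (-0.66 to 0.45) and 0.09 for Bcl3 (-0.29 to 0.46). That Nfkb1 was called in WT cells and not in KO cells therefore does not show a difference between genotypes: the difference of its responses was -0.21 (-1.04 to 0.63).

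Genes that act with the family were read from 3 lists. A list of 19 genes covered signalling to the IkB kinase, not only from the B cell receptor, and the kinase's own genes. Of these 19, 0 rose and 5 fell at 2 h in KO cells, where 13.0% of all tested genes fell. In WT cells 0 rose and 1 fell, where 8.96% of all tested genes fell (edgeR). The total called in that list was near the 27.0% of all tested genes in KO cells and below the 19.7% in WT cells, so the total was not a result about the list. All the called genes fell, and whether the list as a set moved in that direction was not tested. The median log2 change was -0.27 in KO cells and -0.11 in WT cells, beside 0.04 and 0.01 over all tested genes. Tab2, an adaptor of the kinase TAK1, fell in both: it averaged 133 ± 1.42 CPM in KO 2 h cells and 175 ± 8.05 CPM in KO 0 h cells, and 135 ± 3.30 CPM in WT 2 h cells and 175 ± 3.15 CPM in WT 0 h cells (SD, n = 3 each). Its log2 change was -0.39 ± 0.09 in KO cells and -0.37 ± 0.09 in WT cells, with adjusted p = 0.00918 and 0.0160 (edgeR). Map3k14, Prkcb and Sharpin also fell in KO cells, with log2 changes of -0.78, -0.72 and -0.65, against -0.56, -0.50 and -0.34 in WT cells, where they were not called.

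Among 6 further IkB-like or IkB-binding genes, 5 were tested and 1 rose in each genotype, where 14.0% of all tested genes rose in KO cells and 10.7% in WT cells (edgeR). With 1 gene of 5, that count is not a result about the group either. That gene was Nfkbid, which encodes the nuclear protein IkB-NS. It averaged 582 ± 149 CPM in KO 2 h cells and 167 ± 38.5 CPM in KO 0 h cells, and 579 ± 51.4 CPM in WT 2 h cells and 153 ± 25.1 CPM in WT 0 h cells. Its log2 change was 1.80 ± 0.22 in KO cells and 1.92 ± 0.22 in WT cells, with adjusted p = 2.3e-04 and 2.5e-04 (edgeR). The Ras-like IkB-binding genes Nkiras1 and Nkiras2, Nfkbil1 and Commd1 were not called.

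Of 30 genes known as NF-kB targets, 27 were tested; 14 rose and 5 fell at 2 h in KO cells, where 14.0% of all tested genes rose and 13.0% fell. In WT cells 15 rose and 3 fell, where 10.7% of all tested genes rose and 8.96% fell (edgeR). Their median log2 change was 0.77 in KO cells and 0.90 in WT cells, beside 0.04 and 0.01 over all genes. Myc, which drives growth, averaged 865 ± 342 CPM in KO 2 h cells and 103 ± 26.2 CPM in KO 0 h cells, and 936 ± 293 CPM in WT 2 h cells and 99.6 ± 27.1 CPM in WT 0 h cells. The survival gene Bcl2l1, which encodes Bcl-xL, rose by 2.06 ± 0.26 on the log2 scale in KO cells and by 2.36 ± 0.26 in WT cells. Plek rose by 1.96 ± 0.23 in KO cells and by 2.18 ± 0.23 in WT cells. Bcl2a1b and Bcl2a1d also rose, by 2.64 each in KO cells and by 2.52 and 2.40 in WT cells, but these near-identical copies share reads and their split is uncertain. Of the targets that fell, Ltb changed by -1.34 in KO cells and -1.57 in WT cells, with adjusted p = 0.00101 and 6.0e-04 (edgeR). Birc2 and Tnip1 were also called lower in both genotypes. No gene of the 3 lists was called between KO and WT at either time.

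Among the members, Relb and Nfkb2 had the most alike profiles over the 12 libraries, with a root mean square difference of 0.154 between their log2 CPM values, each centred on its own mean. The same measure was used to find the genes most like the 3 members with the smallest p in WT cells, among 8412 genes whose mean log2 CPM reached 3. Nearest to Bcl3 were Klf13, Rassf3 and Fmnl1, at 0.152, 0.161 and 0.163, where the median over all genes was 0.759. Nearest to Nfkbiz were Ndufaf4, Mapk6 and Optn, at 0.118, 0.124 and 0.136, with a median of 0.710. Nearest to Nfkbie were Osgin2, Swap70 and Nle1, at 0.120, 0.137 and 0.142, with a median of 0.864. These values describe the same 12 libraries, which share batches and depth, and are no test.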

How the data were processed

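Poly(A) RNA-seq libraries of sorted splenic follicular B cells were made with NEBNext kits, per the labels' protocols. The authors aligned reads with STAR to mm10, per the submitters' processing notes; the sources used here do not give the counting tool, annotation, strand setting or treatment of multi-mapping reads. Each deposited file held whole-number counts of 1 library by gene symbol, without normalization, and reads of overlapping genes cannot be told apart. Of the 24046 symbols, 27 looked like dates and 2 stood on 2 lines; all were kept.

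Genes were filtered with filterByExpr on the 4 groups, which left 12242. Libraries were scaled with TMM factors (0.522 to 1.20), and a model with 1 mean for each group over all 12 libraries was fitted with edgeR 4.0.16 (quasi-likelihood, robust) under R 4.3.3. Genes were called at a two-sided adjusted p under 0.05 (Benjamini-Hochberg over all tested genes). SE values come from the F statistic and intervals are 95%. The procedure was tested on simulated data with 200 changed genes. The simulation had no batch or animal effects, so it does not show how the procedure handles them. Totals of 5666013 to 14153396 counts limit precision for low genes. Levels were compared per kb with GENCODE M21 lengths; promoter windows are RefSeq's, GRCm38.p6, and the motif searched is a shortened form chosen after longer forms had been tried on the same windows. DESeq2 1.42.0, other scalings, filters, blocks and left-out libraries were alternatives.

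Replicate numbers were taken as pairing samples, since the labels give a shared batch and the library names a shared animal. Deviations from group means correlated at -0.40 to 0.59 within the 6 animals and -0.76 to 0.62 between the 36 pairs of different number. No 2 libraries agreed within sampling noise (chi-square per degree of freedom 13.1 to 809). Nothing says that animals were from separate litters or days beyond the batch. The 10 genes, the 3 lists and the rules were chosen with earlier results of these data known. All members are named, and from each list up to 5 genes with the smallest p in WT cells are covered by the rule. Sharpin, Ltb, Birc2 and Tnip1 were named after their values were seen. 1 gene of these lists is not reported here.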

Additional observations from a re-analysis of the deposited data

How the results depend on the processing

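Direction and call were recomputed for each member in each comparison under 10 other ways of processing and 1 more chosen after seeing the data, which left out all 4 libraries of batch 1. Of 830 values, 745 kept direction and call, 18 lost a call, 17 gained one and 50 changed sign, all 50 uncalled before and after. The calls of Nfkbib, Nfkbie, Nfkbiz and Bcl3 at 2 h against 0 h held in both genotypes under all 16 settings run. The number of members called was 4 to 9 in both genotypes; in KO cells, against 5 with all libraries, it was 8 without both 2 h libraries of batch 1, and 5 to 9 when single libraries were left out, 9 being the value without KO 2 h replicate 1. In WT cells, against 6, it was 4 without any 1 WT library, and 9 with the WT groups fitted on their own. Counts of members called between KO and WT, or for the difference of responses, were 0 in every setting. The replicate block by batch gave 5 members in KO cells and 7 in WT cells, adding Rel (adjusted p = 0.0481); the replicate block by animal gave 5 and 5, losing Nfkb1 in WT cells (adjusted p = 0.0609); the blocks changed no other call. Over all genes, 2409 were called in WT cells, against 3626 without both 2 h libraries of batch 1 and 1277 to 2197 without 1 WT library; 3305 were called in KO cells, against 1772 with the KO groups fitted on their own.

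Signs changed for the values that follow, which include the largest KO against WT value at 2 h, that of Rel (-0.37). Rela in WT cells over time was 0.00057 with genes at 1 CPM in 6 libraries, 0.0016 with the animal block and 0.035 without batch 1. Nfkbie in KO against WT at 0 h was -0.00020 with the 1 CPM filter and -0.0076 with the batch block. Without both 2 h libraries of batch 1, KO against WT at 2 h was 0.0040 for Rel, 0.035 for Relb and 0.0027 for Nfkb1, and the difference of responses was 0.055 for Rel and 0.0035 for Nfkbiz. Without all of batch 1, Relb was 0.029 in KO against WT at 2 h, and the difference of responses was 0.077 for Rel and 0.039 for Nfkbiz. With single libraries left out, the log2 values over time ran from -0.096 to 0.41 for Nfkb2 in KO cells and from -0.067 to 0.032 for Rela in WT cells. KO against WT at 0 h ran from -0.21 to 0.16 for Rel, -0.056 to 0.043 for Rela, -0.059 to 0.095 for Relb, -0.039 to 0.15 for Nfkb1, -0.056 to 0.11 for Nfkbia, -0.049 to 0.082 for Nfkbie and -0.077 to 0.083 for Bcl3. KO against WT at 2 h ran from -0.89 to 0.044 for Rel, -0.32 to 0.075 for Relb, -0.58 to 0.092 for Nfkb1, -0.051 to 0.22 for Nfkbib, -0.47 to 0.058 for Nfkbie and -0.16 to 0.21 for Nfkbiz. The difference of responses ran from -0.83 to 0.097 for Rel, -0.36 to 0.041 for Relb, -0.64 to 0.037 for Nfkb1, -0.50 to 0.0040 for Nfkb2, -0.47 to 0.058 for Nfkbie, -0.34 to 0.032 for Nfkbiz and -0.0029 to 0.18 for Bcl3. The causes were not tested. With 3 animals a genotype, differences between genotypes within the intervals given remain compatible with these data.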
